A study of Mus musculus with 2 samples.

Results

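Cytosolic ribosomal protein genes encode the proteins that, with ribosomal RNA, make up the large and small subunits of the ribosomes of the cytoplasm. They were taken by name, as the protein-coding genes of GENCODE M21 whose symbol starts with Rpl or Rps and a digit, together with Rplp0, Rplp1, Rplp2 and Rpsa, leaving out the S6 kinase genes and symbols with "-ps". This gave 86 of 22028 protein-coding genes and of 55536 annotated genes, on 19 chromosomes, with 14 of them on chromosome 7. Of the 86, 77 are the usual subunit genes, 46 of the large and 31 of the small subunit. The other 9 are paralogs of such genes (Rpl3l, Rpl7l1, Rpl10l, Rpl22l1, Rpl36al, Rpl39l, Rps27l and Rps27rt) or, in the case of Rps19bp1, the gene of a protein that binds Rps19. The naming rule leaves out genes of ribosomal proteins with other names, such as Fau and Rack1, which are described further on with related genes.

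The RNA was chromatin-associated RNA of macrophages grown from the bone marrow of C57BL/6J mice, at 0 minutes of stimulation with 100 ng/ml of lipid A, the lipid of bacterial endotoxin sensed by the receptor Tlr4. Libraries with a size range of 250 to 400 bases were made after removal of ribosomal RNA, in 2 biological replicates, with an RNA input of 250 ng for replicate 1 and of 500 ng for replicate 2. Both replicates belong to 1 group, so no condition was compared and no p-value is given. Both carry the same donor entry, so whether they came from separate animals is not known, and the spread between them may be partly technical. The gene tables summed to 10970767 and 14207280 expected counts, which are estimated reads per gene. Levels are in TPM (expected counts divided by effective length and scaled to a fixed sum per table), as the mean ± SD of both replicates (n = 2) unless each replicate is given. A gene counts as detected where each replicate has at least 1 TPM. All 10 macrophage markers examined were detected, at a median of 37.9 ± 0.322 TPM, with Csf1r, the receptor of the macrophage growth factor CSF1, at 173 ± 16.9 TPM. None of 27 T cell, B cell, neutrophil, erythroid and stromal markers was detected. Their summed level in a list lay between 0 and 1.24 TPM in a replicate, with Cd3e, Pax5, Ly6g and Gata1 at 0 in both replicates. These are values of the gene table; of the 27, 5 averaged 1 TPM or more in the second transcript table, with Cd3d at 9.57 TPM, Cd8a at 2.83, Mpo at 1.40, Col1a1 at 1.38 and Cd3g at 1.17 TPM. In bulk RNA such as this, fewer cells of a type and less RNA per cell cannot be told apart.

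Ribosomal protein genes are housekeeping genes, and their mRNAs are among the most abundant in the cytoplasm of growing cells. In mammals the mRNAs start with a run of pyrimidines, the 5′ terminal oligopyrimidine (TOP) motif, through which mTOR signalling and the RNA-binding protein Larp1 control their translation. Many of the genes carry small nucleolar RNAs (snoRNAs), which guide the modification of ribosomal RNA, in their introns, and the genes have left many processed pseudogenes in mammalian genomes.

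All 77 subunit genes were detected, and 82 of the 86 in all, or 95.3%, against 46.7% of all protein-coding genes. The 77 had a median of 19.7 TPM in replicate 1 and 17.1 TPM in replicate 2 (17.1 ± 1.87 TPM over the means), and ran from 4.82 to 114 TPM. All 10292 detected protein-coding genes had a median of 11.1 ± 0.329 TPM. Large-subunit genes (18.2 ± 2.12 TPM) and small-subunit genes (16.7 ± 2.44 TPM) differed by less than the spread between the replicates. The 86 genes together held 14230 and 19473 expected counts, or 0.130% and 0.137% of all gene counts.

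Among the large-subunit genes, Rpl10, whose protein joins late in the assembly of the subunit (ENSMUSG00000008682.13, chromosome X, 74270812 to 74273135 on mm10), was the highest in the gene table, with 119 TPM in replicate 1 and 108 TPM in replicate 2. Rpl3, which encodes a core protein near the peptidyl transferase centre (ENSMUSG00000060036.14, chromosome 15, 80077791 to 80091868), had 105 and 102 TPM. Rpl10a, which encodes the protein of the L1 stalk (ENSMUSG00000037805.15, chromosome 17, 28328471 to 28331033), had 92.8 and 81.5 TPM. In each replicate Rpl10 was above Rpl3 and Rpl3 above Rpl10a, and the lower replicate of Rpl10a was above every value of the other large-subunit genes. The second transcript table ordered them otherwise, with Rpl3 (67.9 and 98.7 TPM) above Rpl10 (58.8 and 79.8 TPM) in each replicate and Rpl10a at 46.7 and 63.6 TPM, within the range of Rpl13a (45.5 and 74.9 TPM). Rpl12, a protein of the base of the P stalk (chromosome 2, 32961559 to 32965345), had 58.7 TPM in replicate 1 and 43.6 TPM in replicate 2. Rpl13a, which in human cells also acts in translational silencing of inflammatory mRNAs, had 51.8 and 40.1 TPM, and Rpl6 had 43.2 and 46.2 TPM. Rpl5 and Rpl11, whose proteins bind 5S ribosomal RNA and can hold back Mdm2, stood at 45.6 and 49.0 TPM and at 38.2 and 30.6 TPM. The ranges of Rpl12, Rpl13a, Rpl6 and Rpl5 overlapped, so their order is not resolved.

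The genes of the P stalk, which recruits elongation factors to the ribosome, were not among the highest. Rplp0, the base of the stalk, had 11.2 and 8.86 TPM, and Rplp2 had 20.8 and 18.1 TPM. Rplp1 had 18.5 TPM in replicate 1 and 8.04 TPM in replicate 2, from 50 and 32 expected counts. The replicates were thus farther apart for Rplp1 than for its partners in the stalk, at a low count. At the lower end of the large subunit were Rpl29 with 4.84 and 4.79 TPM, Rpl39, a short protein of the peptide exit tunnel, with 5.99 and 6.56 TPM, and Rpl32 with 7.16 and 5.77 TPM.

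Among the small-subunit genes, Rps9 (ENSMUSG00000006333.14, chromosome 7, 3703993 to 3706897) stood above the rest in the gene table, with 86.0 TPM in replicate 1 and 61.1 TPM in replicate 2. In the second transcript table it was above Rps19 in each replicate, but its range (59.3 and 72.6 TPM) overlapped that of Rps19 (54.4 and 71.0 TPM). Rps19, the gene most often mutated in human Diamond-Blackfan anaemia (chromosome 7, 24884371 to 24889806), had 43.2 and 42.1 TPM. Rps12 (chromosome 10, 23785183 to 23787275) had 43.5 and 38.7 TPM, a range that takes in both values of Rps19. Rps27a, which encodes a ribosomal protein fused to ubiquitin, had 32.6 and 28.2 TPM. Rps6, the protein phosphorylated by S6 kinases, had 15.8 and 15.6 TPM. Rps26, whose protein lies at the mRNA exit channel, had 5.92 and 7.25 TPM, and Rps16 was lowest, with 5.54 and 4.51 TPM.

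**Figure D1:**
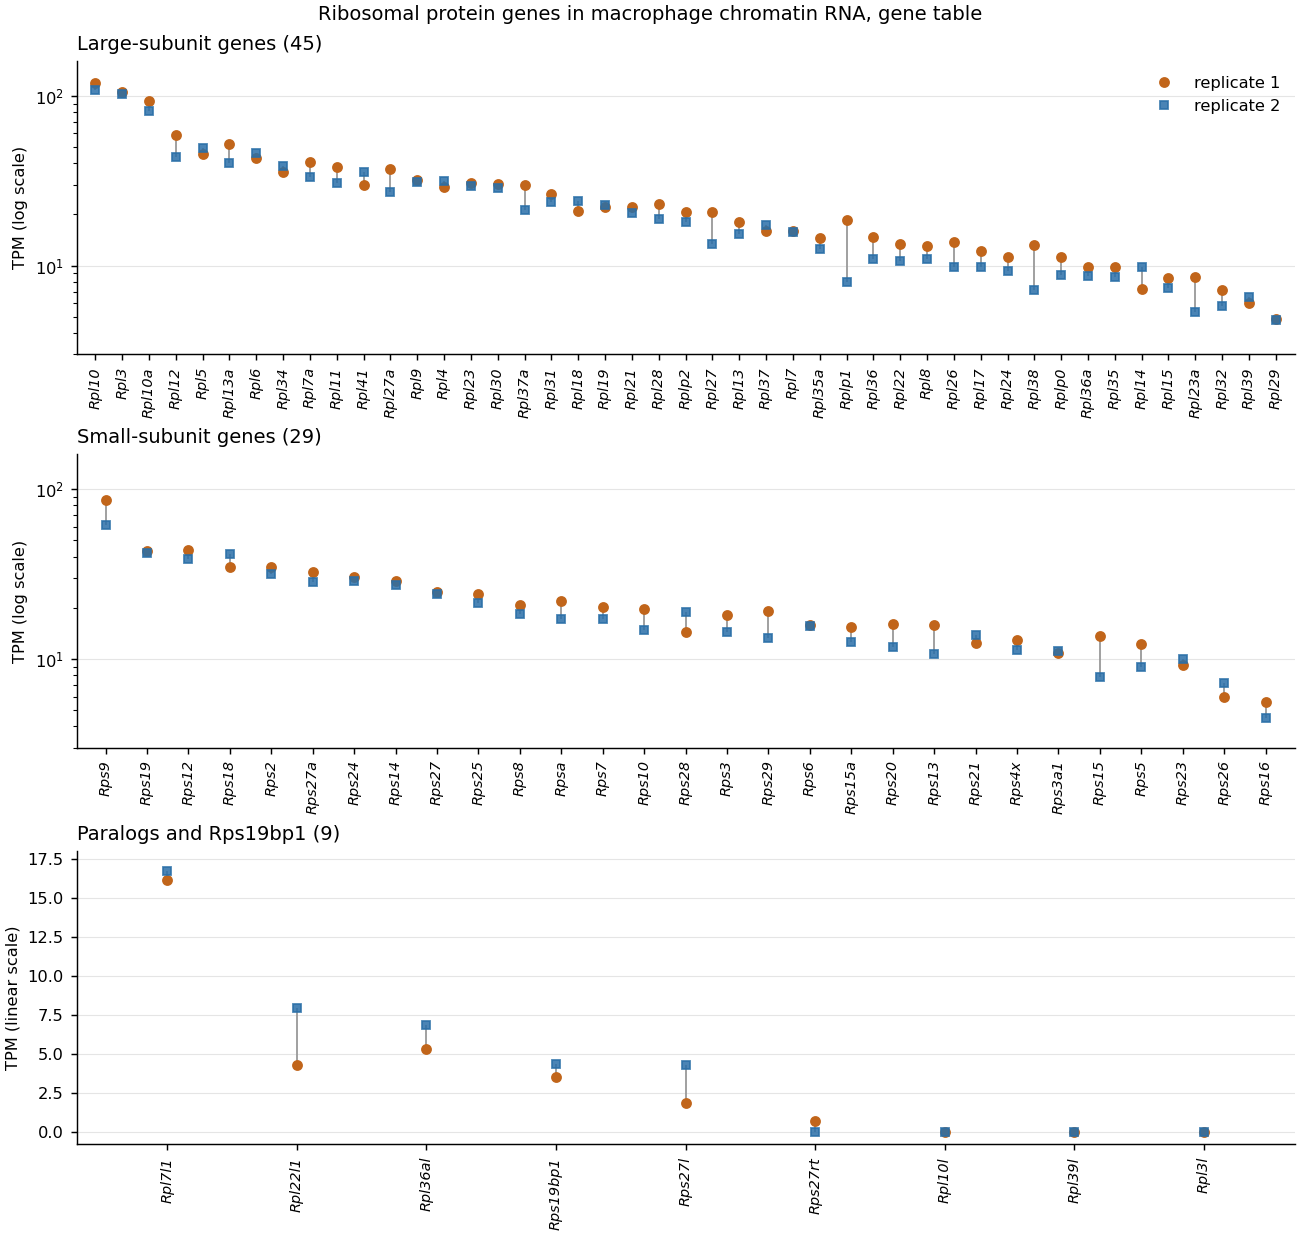
Level of 83 of the genes in both replicates, in TPM, on a log scale for 45 large-subunit (top) and 29 small-subunit genes (middle) and on a linear scale for the 9 paralogs and Rps19bp1 (bottom); a line joins the replicates. Rpl10, Rpl3, Rpl10a and Rps9 are the highest, all subunit genes shown lie above 4 TPM, and Rpl10l, Rpl39l and Rpl3l are at 0.

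The proteins are used in near equal numbers in a ribosome, and the levels of their genes on chromatin were spread less than those of protein-coding genes in general. Among the 77 subunit genes the 90th percentile was 4.84 times the 10th (43.5 against 8.98 TPM). The same ratio was 5.78 among the 74 detected of 78 mitochondrial ribosomal protein genes and 23.8 among all detected protein-coding genes. The level of the subunit genes was also above that of the mitochondrial ones, which had a median of 4.59 ± 0.134 TPM, by more than the spread between replicates. The order of the 77 was much alike in the replicates (Spearman's rho 0.952 and Pearson's r of log2 TPM 0.958 across genes, which share transcript lengths between the libraries and are not independent). Rpl10 exceeded 96.9% of detected protein-coding genes, Rps10, which lay near the middle of the group, 64.2%, and Rps16 27.3%.

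**Figure D2:**
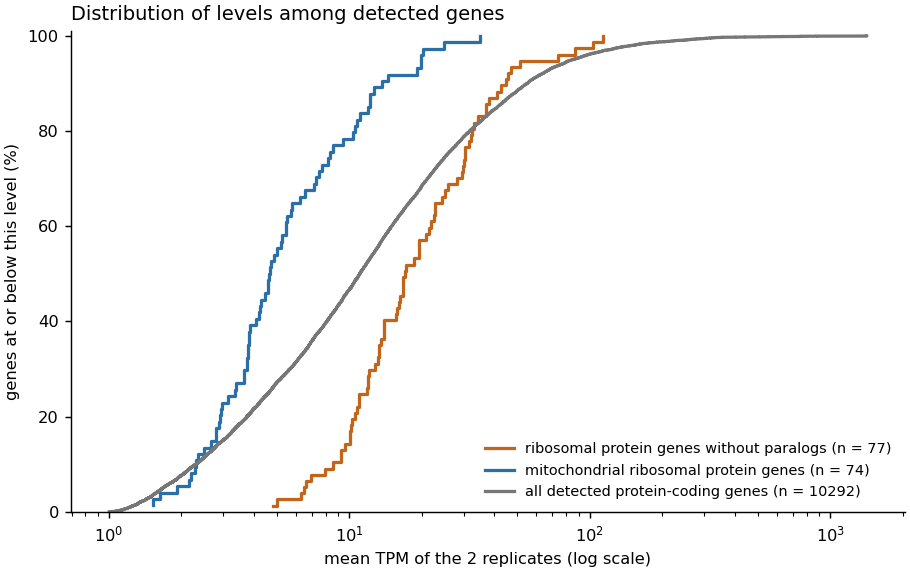
Cumulative share of genes (vertical axis, percent) at or below each mean TPM (horizontal axis, log scale) for the 77 ribosomal protein genes without paralogs, the 74 detected mitochondrial ribosomal protein genes and all 10292 detected protein-coding genes. The ribosomal protein genes start at 4.82 TPM and rise steeply, with a median of 17.1 TPM against 4.59 TPM for the mitochondrial ones and 11.1 TPM for all.

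Much of this level was assigned to transcripts annotated to keep an intron. In chromatin-associated RNA, reads of unspliced RNA over the same introns cannot be told apart from reads of such transcripts. GENCODE lists retained-intron transcripts, which are annotated to hold intron sequence, for 65 of the 86 genes (75.6%), against 41.4% of protein-coding genes. In the first transcript table, 57.3% and 59.2% of the expected counts of the 86 genes lay on retained-intron transcripts and 35.4% and 33.9% on protein-coding transcripts. Over all protein-coding genes the shares were 25.01% and 25.2% on retained-intron and 67.8% and 67.7% on protein-coding transcripts. Of the 118 distinct introns held in retained-intron transcripts of 44 of the genes, all 118 began with GT and ended with AG, and their median length was 262 bases (76 to 2369). For 4 genes the junctions are shown of the intron whose retaining transcripts together held the most counts, with exon bases in capitals and intron bases in lower case, from the mm10 transcripts. They are Rpl10 (chrX:74271025-74271659, plus strand, 635 bases), Rpl10a (chr17:28329048-28329373, plus strand, 326 bases), Rpl3 (chr15:80081032-80081614, minus strand, 583 bases) and Rpl35a (chr16:33057543-33058678, plus strand, 1136 bases). For Rpl35a another intron of the same transcript (chr16:33058824-33060097) held the same counts, and the first by position is shown.
Rpl10 5′ junction: CCGCCCGGTGgtgagtgctgaacccatgca
Rpl10 3′ junction: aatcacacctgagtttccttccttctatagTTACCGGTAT
Rpl10a 5′ junction: GCACCGTCAGgttggcaccgctctaacccc
Rpl10a 3′ junction: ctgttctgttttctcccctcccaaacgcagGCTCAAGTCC
Rpl3 5′ junction: ATAAGAACTGgtaagaggctcttgggttcc
Rpl3 3′ junction: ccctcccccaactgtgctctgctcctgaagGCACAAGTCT
Rpl35a 5′ junction: AGGCAAAAAAgtaagtatgctcccatgcct
Rpl35a 3′ junction: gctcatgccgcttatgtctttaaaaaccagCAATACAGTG

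The share of a gene's counts on retained-intron transcripts was followed in 36 of the 65 genes, those that reached 100 counts in both replicates. Their median share was 65.2% in replicate 1 and 68.5% in replicate 2 (66.9% ± 2.32), against 31.4% and 30.4% in 5006 other protein-coding genes (30.9% ± 0.686). By TPM the median shares were closer, at 63.6% and 61.1% against 49.3% and 48.4% in the others. In the second transcript table they were 54.5% and 58.3% against 33.4% and 33.2%. The difference by counts exceeded the spread between replicates. A share of at least 50% was found in 22 of the 36 (61.1%), where 30.5% of all 5042 such protein-coding genes had one. Large-subunit genes (67.7% ± 0.249, 20 genes) and small-subunit genes (67.6% ± 3.58, 15 genes) were alike within that spread, and the 20 mitochondrial ribosomal protein genes that qualified had 63.5% ± 2.21. The genes are short, with a median span of 3800 bases for the 36 against 31846 bases for the others. Among genes that span under 10000 bases, 33 ribosomal protein genes had a median share of 66.6% ± 2.27 and 664 others 45.6% ± 0.991. Genes with more annotated retained-intron transcripts tended to have higher shares among the others, from 15.6% with 1 such transcript to 44.7% with 5. With 1 such transcript the median of 5 ribosomal protein genes was 6.47% (others 15.6%), with 2 it was 76.0% (10 genes, others 29.1%), and with 3 it was 37.0% (6 genes, others 36.0%). With 4 it was 76.4% (6 genes, others 43.6%) and with 5 it was 66.4% (6 genes, others 44.7%).

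The genes fell at both ends of the range. Rpl3 had 97.0% and 96.6% of its counts on retained-intron transcripts, and 1 of them, Rpl3-204, held 781 and 1235 expected counts (58.5% and 62.9% of the gene). Rpl10a had 97.3% ± 0.765, Rpl10 83.7% ± 1.76, Rpl12 83.2% ± 1.97, Rps24 76.6% ± 0.632 and Rps9 46.5% ± 3.58. These are the 6 genes that reached 500 counts in both replicates, and by counts Rps9 was apart from the other 5. Of the genes with lower counts, Rpl35a had the highest share, 96.4% in replicate 1 and 98.4% in replicate 2, most of it on Rpl35a-206 with 186 and 300.3 expected counts. At the other end, Rps15a had 2.36% and 1.46%, Rpl15 0% and 9.70%, Rpl18 5.84% and 5.82%, and the Rpl7-like gene Rpl7l1 6.99% and 5.95%. The replicates of Rpl15 take in those of the other 3, so its place among them is not resolved. For Rps15a and Rpl18 a single protein-coding transcript held most counts, with 350.3 and 462 for Rps15a-204 and 405 and 584 for Rpl18-207. Longer transcripts take more counts at the same TPM, so the shares, low or high, depend on transcript length. Between 2 protein-coding transcripts of Rps15a, Rps15a-204 had 6.85 and 6.03 TPM, and Rps15a-202, with only 14.7 and 21.3 counts, had 3.56 and 3.49 TPM. By TPM the retained-intron share of Rpl18 was 26.6% and 34.8%. Of the 6 genes with 500 counts, Rps24 had 47.8% and 48.9% by TPM, Rpl12 78.4% and 74.0%, and Rps9 64.3% and 56.3%. Rpl10a, Rpl3 and Rpl10 stayed at 85.4% or above in each replicate.

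**Figure D3:**
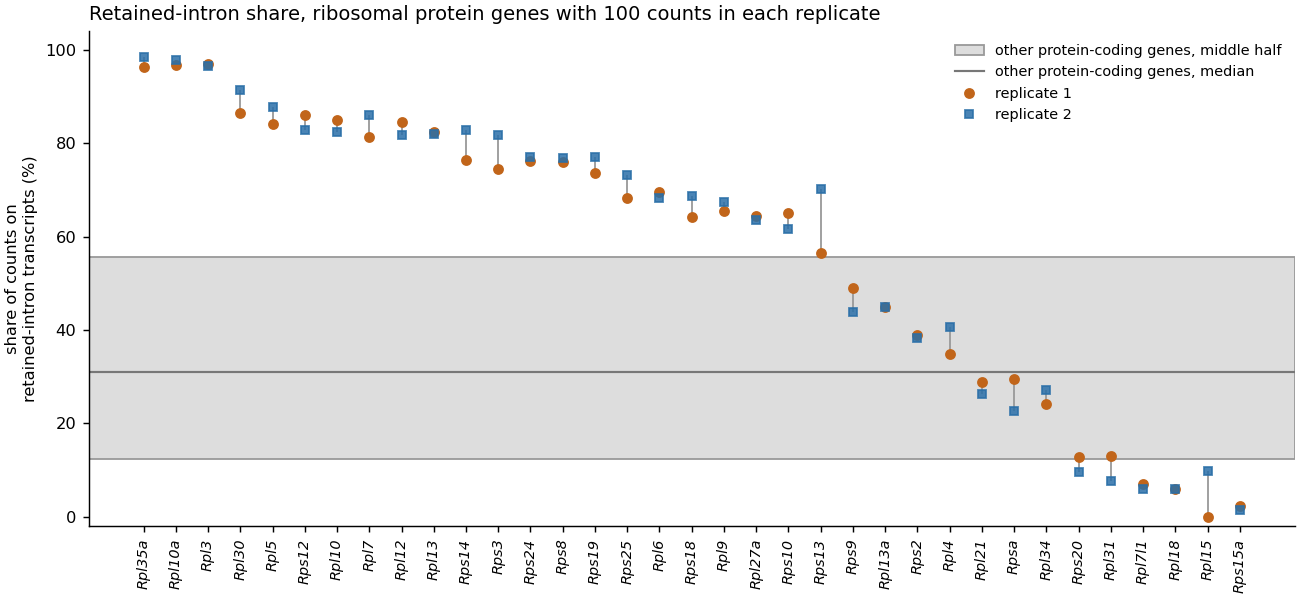
Share of each gene's expected counts on retained-intron transcripts (percent) in both replicates, for 35 of the ribosomal protein genes with 100 counts in each; the grey band and line give the interquartile range (12.4% to 55.6%) and the median (30.9%) of 5006 other protein-coding genes. The replicates lie close together for most genes, 22 genes lie at 50% or above, and 6 have a mean below the grey band, with Rps15a lowest.

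Counting protein-coding transcripts alone, the order of the genes changed. The 77 subunit genes then had a median of 6.50 ± 1.11 TPM, against 5.345 ± 0.0919 TPM for all detected protein-coding genes. This difference was close to the spread between replicates, unlike that of the whole-gene levels. The levels of the 77 by this measure and by the whole gene ranked only loosely alike (Spearman's rho 0.297 across genes). Rps9 was highest on this measure at 27.5 TPM, Rpl34 had 22.9 TPM and Rpl31 19.7 TPM. Rpl10a, the third highest by the whole gene, had 0.770 TPM on protein-coding transcripts. The split of a gene among its transcripts is an estimate wherever they share exons, and the tables hold annotated transcripts only, so reads from other introns are not in them.

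The second transcript table, made from the same reads with another method, gave 77 subunit genes a median of 19.9 ± 4.72 TPM, with 16.8 TPM in replicate 1 and 23.5 TPM in replicate 2. Detected protein-coding genes had 14.3 ± 3.97 TPM there, with 11.5 and 17.1 TPM, so both sets were higher in replicate 2. The difference between the sets was close to the spread between replicates in this table. Across genes the tables ranked the 77 alike (Spearman's rho 0.824). Of 82 genes with at least 1 TPM in either table, 6 were more than 2-fold higher in the second table and none was more than 2-fold lower. Of 12876 protein-coding genes compared in the same way, 27.5% were higher and 0.342% lower by that much (27.9% in either direction). The largest gap was that of Rps27l, a p53 target in human cells, with 10.002 and 15.1 TPM in the second table against 1.85 and 4.29 TPM in the gene table. Rpl39 had 15.8 and 22.4 TPM in the second table against 5.99 and 6.56 TPM. Rpl36 averaged 31.1 ± 6.13 TPM there against 12.8 TPM, Rps7 41.9 ± 11.99 TPM against 18.6 TPM, and Rpl24 21.6 ± 10.3 TPM against 10.3 TPM. The last of the 6, Rps16, averaged 10.2 ± 0.894 TPM there against 5.03 TPM. The levels of these genes are therefore uncertain by 2-fold or more.

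**Figure D4:**
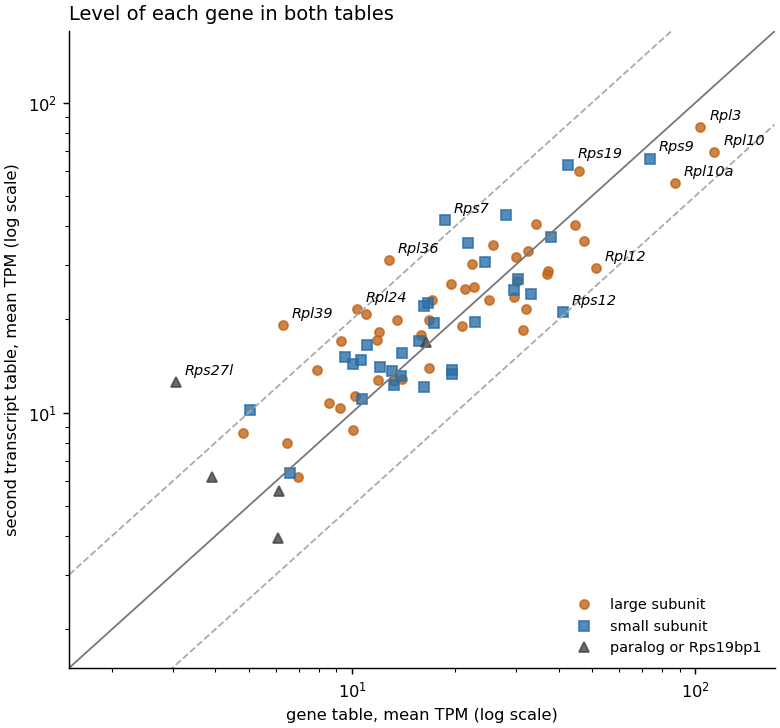
Mean TPM of each gene in the second transcript table (vertical) against the gene table (horizontal), both on log scales, for large-subunit genes, small-subunit genes and the paralogs with Rps19bp1; the solid line marks equal levels and the dashed lines a 2-fold difference. Rps27l, Rpl39, Rpl36, Rps7, Rpl24 and, narrowly, Rps16 lie above the upper dashed line and no gene lies below the lower one.

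Between the replicates the genes differed little. The log2 ratio of replicate 2 over replicate 1 was taken on counts scaled by the TMM method, for genes that averaged 10 counts or more. Over all 15193 such genes the median was 0.00, and over the 81 ribosomal protein genes it was −0.06. The sign of this median depended on the scaling: by library totals it was 0.06, with the median of all genes at 0.13, so that relative to all genes the ribosomal protein genes were lower by 0.07 on the log2 scale with either. Among the 61 that averaged 50 counts or more, 1 was past 1.5-fold, where 3.38% of all 10984 genes were (1.75% higher and 1.63% lower). This was Rpl22l1, higher in replicate 2 with 107 expected counts against 50 in replicate 1, a log2 ratio of 0.59 with a 95% exact binomial interval of 0.10 to 1.11. The next highest were Rpl41 (0.30), Rps27 (0.30), Rpl37 (0.28) and Rps28 (0.24), all with intervals that included 0. The lowest were Rpl27 (−0.55), Rps7 (−0.52), Rpl37a (−0.50) and Rpl13a (−0.39), with intervals below 0. In all, the interval left out 0 for 8 of the 61 (13.1%), 6 lower and 2 higher, against 29.5% of all 10984 genes (14.4% lower and 15% higher), whose counts, and with them the width of the intervals, differ. These intervals and the floors given for counts of 0 hold counting error alone, as reads without molecular identifiers may copy 1 molecule.

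The paralogs fell into 2 kinds. Rpl3l, known from heart and skeletal muscle, and Rpl10l and Rpl39l, known from the testis, held no expected count in either replicate, although their coding sequences are 73.2%, 84.8% and 85.3% identical to those of Rpl3, Rpl10 and Rpl39. The upper limit that a count of 0 leaves, 3 counts, is 0.274 RPM (reads per 1e6 gene counts) in replicate 1 and 0.212 RPM in replicate 2. In the second table each of these 3 had at most 0.158 TPM. Rps27rt, a single-exon copy whose coding sequence is 100% identical to that of Rps27, held 1 and 0 expected counts, and reads of such copies cannot be told apart over the coding sequence. Among the expressed ones, Rpl7l1 (coding sequence 52.8% identical to Rpl7) had 16.1 and 16.7 TPM, and Rpl7 itself 15.9 and 15.7 TPM. Rpl7l1 thus made up 50.3% and 51.5% of the pair by whole-gene level. Of the counts of Rpl7, 81.2% and 86.0% lay on retained-intron transcripts, against 6.99% and 5.95% of those of Rpl7l1. The protein-coding transcript Rpl7l1-201 had 8.35 and 8.79 TPM, and Rpl7-201 had 2.78 and 1.37 TPM. Rpl36al had 5.31 and 6.84 TPM, 35.0% and 44.2% of its pair with Rpl36a. Rpl22l1 had 4.30 and 7.91 TPM, 24.3% and 42.7% of its pair with Rpl22, and Rps27l had 6.93% and 15.2% of its pair with Rps27. The shares of Rpl22l1 and Rps27l differed widely between replicates, and those of Rpl36al and Rps27l between tables (18.4% and 29.4% of their pairs in the second table). Rps19bp1 had 3.49 and 4.33 TPM.

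Pseudogenes that carry the name of a ribosomal protein gene took few of the counts, and copies with other names were not counted. GENCODE holds 301 pseudogenes named after ribosomal protein genes, 292 processed and 9 transcribed processed, and 206 of them had no count in either replicate. Together they had 731 and 898 expected counts, which is 4.89% and 4.41% of the sum with the 86 genes. For some parents the part was large. The 8 pseudogenes of Rpl36 had 62.3% and 61.5% of the sum with their parent, the 6 of Rpl26 58.9% and 53.9%, the 14 of Rpl23a 45.1% and 60.8%, and the 11 of Rps2 44.9% and 42.6%. Among the highest by counts were Rps2-ps9 (chromosome 17, 27784379 to 27785246), annotated as transcribed, with 97 and 90 counts, and Rps2-ps11 (chromosome 9, 108358202 to 108359069) with 69.0 and 109 counts, whose ranges overlap. Per length Rpl26-ps4 (29.6 and 17.3 TPM) and Rpl36-ps2 (27.5 and 18.5 TPM) were above Rps2-ps9 (16.6 and 10.1 TPM). The levels of these 4 parents depend on how the reads were shared out, as reads of near-identical copies may be split either way.

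Within 30 of the genes lie 58 annotated snoRNA genes on the same strand. The host genes had a median of 19.5 ± 2.24 TPM (30 genes) and the other subunit genes 16.2 ± 2.60 TPM (47 genes), a difference close to the spread between replicates. Counts are given for the snoRNAs in place of TPM, as the effective lengths of nearly all of them in the gene table are 0 or a few bases. The 3 with the most counts are shown here, since they carry most of the snoRNA counts of the gene table. Capitals mark the letters TGATGA and CTGA, the core of the C and D boxes, in Snord15b and Snord15a, which are of the box C/D kind, and the ACA near the 3′ end in Gm26448. They lie at chr7:99479563-99479707 (Snord15b) and chr7:99482785-99482932 (Snord15a) in Rps3 and at chr9:120129351-120129553 (Gm26448) in Rpsa, on mm10, with Gm26448 on the plus and the others on the minus strand.
Snord15b: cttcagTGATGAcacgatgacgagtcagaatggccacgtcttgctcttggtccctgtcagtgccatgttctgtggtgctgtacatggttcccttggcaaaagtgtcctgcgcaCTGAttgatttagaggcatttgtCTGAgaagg
Snord15a: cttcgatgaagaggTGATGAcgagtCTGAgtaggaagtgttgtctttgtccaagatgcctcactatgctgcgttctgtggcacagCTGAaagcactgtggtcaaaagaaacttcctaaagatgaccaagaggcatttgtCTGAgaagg
Gm26448: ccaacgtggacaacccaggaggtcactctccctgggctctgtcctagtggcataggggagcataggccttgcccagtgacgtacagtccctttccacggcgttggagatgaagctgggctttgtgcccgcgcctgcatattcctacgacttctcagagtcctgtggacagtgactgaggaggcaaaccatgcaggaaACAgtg

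Snord15b, of 145 bases, held 1371 expected counts in replicate 1 and 2060 in replicate 2, several times those of its whole host gene Rps3 (404 and 510). Snord15a, of 148 bases, held 435 and 488, and Gm26448, of 203 bases, 216 and 293. Snora21 in Rpl23 held 15 and 9. Snord15b lies within an exon of the retained-intron transcript Rps3-204, to which the first transcript table gave 280 and 393 counts, so reads of both cannot be told apart there, and the retained-intron share of Rps3 (74.5% and 81.7%) rests on that transcript. In all, 23 of the 58 lie within an exon of a retained-intron transcript of the host.

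Which snoRNA genes had counts went with their length. All 37 of under 129 bases had no expected count in the gene table in either replicate, and 16 of the 21 of 129 bases or more had some (a split chosen after the values were seen). The effective length of the 37 was 0 bases there in both replicates, apart from AF357399 (125 bases) with 1.17 and 0. No level can be computed at an effective length of 0, so these counts of 0 are not a result about the snoRNAs. In the second transcript table, 29 of the same 37 had counts, 814 and 1430 in sum, with Snord21 in Rpl5 (94 bases) at 225 and 490 the highest. A value of 0 for a short snoRNA in the gene table is therefore not read as absence. The part of the library size range of 250 to 400 bases in this was not tested.

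**Figure D5:**
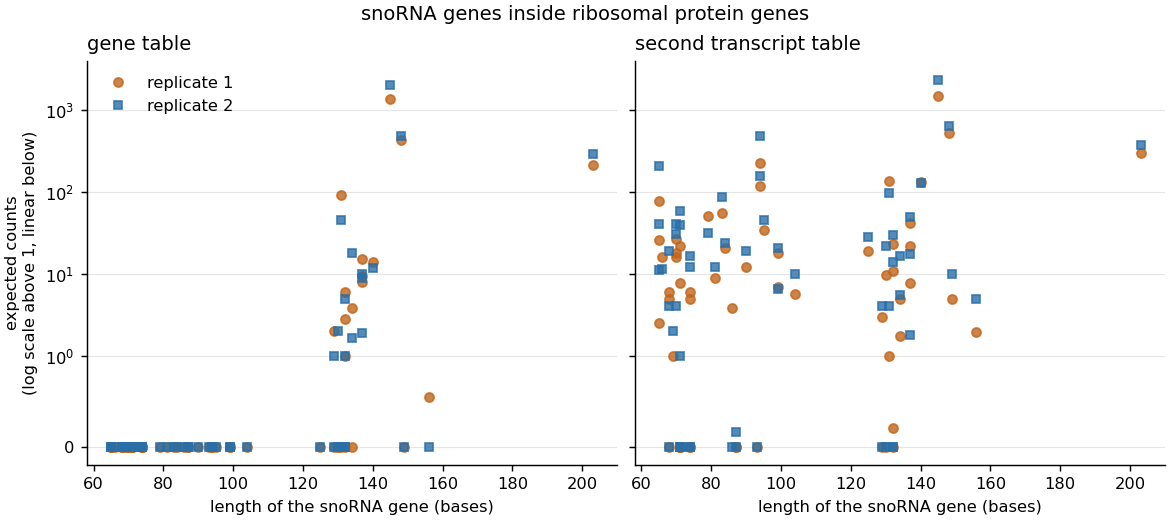
Expected counts of the 58 snoRNA genes inside ribosomal protein genes (vertical axis, log scale above 1 and linear below) against their length in bases, in the gene table (left) and the second transcript table (right), with 1 point per replicate. In the gene table all genes under 129 bases are at 0, and 29 of those 37 have counts in the second one.

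Promoter sequence was described for the 66 of the 86 genes with an entry in the RefSeq promoter table (GRCm38.p6, 1 start per gene). A run of at least 7 pyrimidines (C or T) from 20 bases before to 20 after the RefSeq start was found in 35 of the 66 (53.03%), against 23.8% of 16522 protein-coding genes and 23.2% of 69 mitochondrial ribosomal protein genes. The letters CCGGAAG, the core recognised by ETS factors such as Gabpa, occurred on either strand within 250 bases before to 50 after the start in 37.9% of the genes, against 12.3% of protein-coding and 36.2% of mitochondrial ribosomal protein genes. AAGATGG, part of the site recognised by Yy1, occurred in the same window on either strand in 13.6%, against 6.43% of protein-coding and 18.8% of mitochondrial ribosomal protein genes. TATAAA occurred within the 50 bases before the start in 1 of the 66 (1.52%), against 3.42%. The windows from 40 bases before to 20 after the start are shown for 2 of the highest genes, for Rpl5, and for the 2 longest runs, with the longest run of pyrimidines near the start in capitals. They are Rps9 (chr7:3704001-3704060, plus strand), Rpl12 (chr2:32961672-32961731, plus strand), Rpl5 (chr5:107900488-107900547, plus strand), Rpl27a (chr7:109519155-109519214, plus strand) and Rpl7a (chr2:26910767-26910826, plus strand).
Rps9: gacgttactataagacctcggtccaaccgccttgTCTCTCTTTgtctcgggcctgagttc
Rpl12: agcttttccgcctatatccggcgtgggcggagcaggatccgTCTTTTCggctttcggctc
Rpl5: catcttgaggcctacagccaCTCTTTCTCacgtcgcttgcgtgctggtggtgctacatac
Rpl27a: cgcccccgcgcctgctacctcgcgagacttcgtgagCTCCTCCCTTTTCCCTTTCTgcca
Rpl7a: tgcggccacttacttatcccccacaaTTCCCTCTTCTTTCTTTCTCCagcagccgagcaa

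The run was 9 bases in Rps9 and Rpl5, 7 in Rpl12, 20 in Rpl27a and 21 in Rpl7a. In Rpl10, the highest in the gene table, the longest run in this window was 3 bases. The motifs were searched one by one and may overlap. A match of letters is a description of the window and not of binding, and the RefSeq start need not be the start used in these cells.

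Genes around the ribosome were read from 4 further lists. The 18 other ribosomal protein and TOP mRNA genes were all detected, at a median of 26.8 ± 0.0530 TPM, above that of the subunit genes. The highest were the elongation factor gene Eef1a1 (162 ± 18.3 TPM), the snoRNA host Gas5 (143 ± 4.91 TPM), Hnrnpa1 (67.7 ± 1.12 TPM) and the poly(A)-binding protein gene Pabpc1 (55.8 ± 4.96 TPM), and the lowest Eef1d (10.9 ± 0.368 TPM) and Eif3h (6.21 ± 1.41 TPM). The ribosomal protein genes left out by the naming rule were in the range of the others, Rack1 at 43.2 ± 1.73 TPM and Fau at 24.1 ± 1.55 TPM. Of 25 ribosome biogenesis genes 24 were detected, at a median of 8.55 ± 0.453 TPM. Gnl3 (40.7 ± 4.94 TPM), Ncl, which encodes nucleolin (37.5 ± 2.38 TPM), Wdr43 (34.9 ± 2.47 TPM) and Nop56, a core protein of box C/D particles (29.3 ± 7.08 TPM), led the list, and Bysl (1.15 ± 0.198 TPM) and Nop10 (0.820 ± 0.0990 TPM) were lowest.

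RNA polymerase I, which makes ribosomal RNA, and its factors were detected in 14 of 15 genes, at a median of 7.31 ± 0.841 TPM. Taf1d (161 ± 4.25 TPM) and Ubtf (41.5 ± 7.88 TPM) were followed by the termination factor gene Ttf1 (19.1 ± 0.453 TPM) and Polr1d (10.9 ± 2.39 TPM), and Znrd1 (3.06 ± 0.141 TPM) and Polr1e (1.16 ± 0.537 TPM) were lowest. Of 14 genes that control TOP mRNAs or respond to nucleolar stress, 13 were detected, at a median of 17.8 ± 2.25 TPM. Mdm2, the p53 ligase that Rpl5 and Rpl11 can bind, stood at 125 ± 1.22 TPM, Max, the partner of Myc, at 57.7 ± 2.64 TPM, Rptor, which defines mTOR complex 1, at 55.5 ± 8.90 TPM, and Larp4 at 25.5 ± 3.15 TPM. Larp1 had 23.1 ± 2.42 TPM. The lowest were Eif4ebp1 (1.77 ± 0.163 TPM, but 14.2 TPM in the second table) and Myc (1.28 ± 0.629 TPM).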

How the data were processed

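Both libraries are of 1 group. For each, the authors deposited 1 gene table and a pair of transcript tables, with expected counts (estimated reads, not whole numbers) and TPM per gene or transcript. Per the submitters' notes in the deposit, an alignment to GENCODE M21 transcripts on mm10 gave the gene table and first transcript table, and an index of those transcripts gave the second. The sources used here name neither the tools nor whether strand was kept, so antisense or overlapping genes cannot be told apart. A phage control (phiX) held 0.338% and 0.270% of counts and was left out.

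Members and lists were chosen with earlier results of these data known. Ratios used TMM factors of edgeR 4.0.16 (0.957 and 1.05) in R 4.3.3 and expected counts plus 0.5; DESeq2 1.42.0 size factors were an alternative. The ratio and share steps were checked on simulated data. Intervals are exact binomial (scipy 1.17.1) at 95%. Python 3.11.15, numpy 2.4.6, pandas 2.3.3, matplotlib 3.10.9 and Biopython 1.88 (global alignment of coding sequences; protein sequences were not used here) did the rest. Promoters are from RefSeq; 66 of 86 members matched by symbol.

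Named genes are the 10 highest and 5 lowest members by mean TPM, all paralogs, the 5 highest and lowest ratios among members averaging 50 counts or more, the members with at least 500 counts for retained introns, the 5 largest gaps between tables, the 5 highest snoRNA genes, and the 4 highest and 2 lowest of each list. Genes with a known role, and the subunit genes with the lowest levels, the lowest or highest retained-intron shares, the most pseudogene counts or the longest pyrimidine runs, were named after values were seen. Some results that this rule takes are not reported here.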

Additional observations from a re-analysis of the deposited data

How the results depend on the processing

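No paired analysis was possible because both replicates belong to 1 group. The number of detected genes was 77 at a threshold of 5 TPM and 82 under the other alternatives. The median level of the 86 genes, 16.3 TPM, was 19.1 TPM in the second transcript table and 6.21 TPM on protein-coding transcripts alone. Their share of counts, 0.134%, was 0.218% of protein-coding counts and 0.168% without 3 genes that hold ribosomal DNA copies. The ratio of the 90th to the 10th percentile of the subunit genes, 4.84, was 3.76 in the second table and 6.91 on protein-coding transcripts, and ran from 4.84 to 5.70 with either replicate left out. The median log2 ratio between replicates, −0.06, was 0.062 by library totals, −0.19 with TPM and −0.025 with the second table. At a mean of 10 counts, 5 genes in place of 1 were past 1.5-fold, with 10.4% of all genes past it. The median retained-intron share, 66.9%, was 62.3% of TPM, 56.4% in the second table and 83.5% for the 6 genes with 500 counts. Other protein-coding genes, at 30.9%, had 49.3% and 48.4% of TPM in replicates 1 and 2. They had 33.4% and 33.2% in the second table, and 28.9% among 2253 genes with 500 counts. Using counts in place of TPM, 43 genes in place of 6 were over 2-fold apart between the tables, whose totals differ. The median ratio of counts, second table over gene table, was 2.05 for the ribosomal protein genes and 1.83 for protein-coding genes. By TPM, 15 were over 2-fold apart without replicate 1 and 7 without replicate 2. Detected protein-coding genes had a median of 11.5 TPM in replicate 1 and 17.1 TPM in replicate 2 of the second table. The share of all protein-coding genes was not computed at these settings, so these counts are not read as a result about the ribosomal protein genes. The pseudogene share, 4.65%, was 6.62% in the second table and 11.7% of TPM. The cause of these shifts was not tested. A count of 0 allows 0.274 and 0.212 RPM, and 61 of the 86 genes reached the mean of 50 counts used for single ratios.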
